A study of Mus musculus with 8 samples.

Results

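A set of 10 genes that mark macrophages, or macrophages of the so-called M2 type, were followed through the pancreas of lean and obese mice. All were taken by symbol from the 15047 genes of the expression table, and none was missing. The 5 lineage markers were Csf1r, Adgre1, Cd68, Cd14 and Msr1, and the 5 M2-type markers were Mrc1, Cd163, Arg1, Chil3 and Retnla. RNA sequencing was performed on pancreas tissue of 8 male mice in 3 groups. In the first, 3 C57BL/6 WT mice had received a low-fat diet (LFD, n = 3), and in the next 3 more a high-fat diet with 60% of calories from fat (HFD, n = 3), each for 10 weeks from the age of 4 weeks. The other group was C57BL/6J; ob/ob mice, which lack leptin and received standard chow, also from the age of 4 weeks (ob/ob, n = 2). Genotype and chow therefore cannot be told apart in the ob/ob group. The study's methods and text describe the sequenced tissue as pancreas carrying transplanted mT organoids, which are cultures from mouse pancreatic tumour, while the labels name the tissue only as pancreas. All groups would share this transplant.

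Macrophages are phagocytes that settle in tissues from embryonic precursors or arise from blood monocytes, and they depend on signals through the receptor encoded by Csf1r. The M2 type is a textbook pole of macrophage activation that is reached in culture with IL-4 or IL-13, whose receptors act through STAT6, and that is read in mice from arginase, the mannose receptor and the secreted proteins Ym1 and FIZZ1. Macrophages in tissue rarely fit either pole, and in pancreatic tumours they are a common part of the stroma.

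Values are given on the rlog scale, a log2 scale on which a difference of 1 is a doubling and on which the differences of low or noisy genes are shrunk. Median values were between 7.09 and 7.25 in all mice, and correlations between pairs of mice across genes lay between 0.884 and 0.982. Sequencing depth is not known from the values, so their precision is read here only from the spread between mice. Acinar cells make the digestive enzymes and fill most of a normal pancreas. The mean rlog value of 26 acinar genes was 17.09, 17.30 and 17.57 in LFD mice, 17.41, 15.33 and 13.40 in HFD mice, and 16.69 and 13.72 in ob/ob mice. HFD replicate 1 was thus within the LFD range, while HFD replicates 2 and 3 and ob/ob replicate 2 were far below it. In bulk tissue, fewer acinar cells, more macrophages and more RNA per macrophage cannot be told apart. A fit with the acinar mean as a covariate is given below. That mean was itself lower in most obese mice, so the fit does not separate the acinar share from the groups.

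No gene of the table passed an adjusted p of 0.05 in any comparison of the groups (limma on all 8 mice, Benjamini-Hochberg over 15047 genes), so that 0.0% of genes and 0 of the 10 markers were called. Lineage and M2-type markers nevertheless lay mostly on the same side of the LFD mice. The mean of the HFD and ob/ob groups was above the LFD mean for 9 of the 10 markers, the exception being Chil3. The share of all genes with a higher mean was not counted, and the median difference over all genes was 0.041. The markers were chosen with earlier results of these data known, so their counts here and below are descriptions and not independent support. At an unadjusted p under 0.05, 6 of the 10 were higher in this comparison against 14.5% of all genes, and 0 were lower against 10.9% of all genes. With each mouse centred on its median, the counts were again 6 and 0, while 12.1% of all genes were higher and 14.0% lower. In the fit without this centring the 6 were Csf1r, Adgre1, Cd68, Msr1, Mrc1 and Arg1. In 4 of the 10 (Adgre1, Msr1, Mrc1 and Arg1) each of the 5 obese mice was above each LFD mouse, as it was for 9.4% of all genes. The fit without HFD replicate 1, the mouse with an acinar level like that of LFD mice, gave an adjusted p under 0.05 for the same 6 markers and for 22.1% of all genes. Without ob/ob replicate 1, 4 markers (Adgre1, Msr1, Mrc1 and Arg1) and 3.16% of genes passed.

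**Figure D1:**
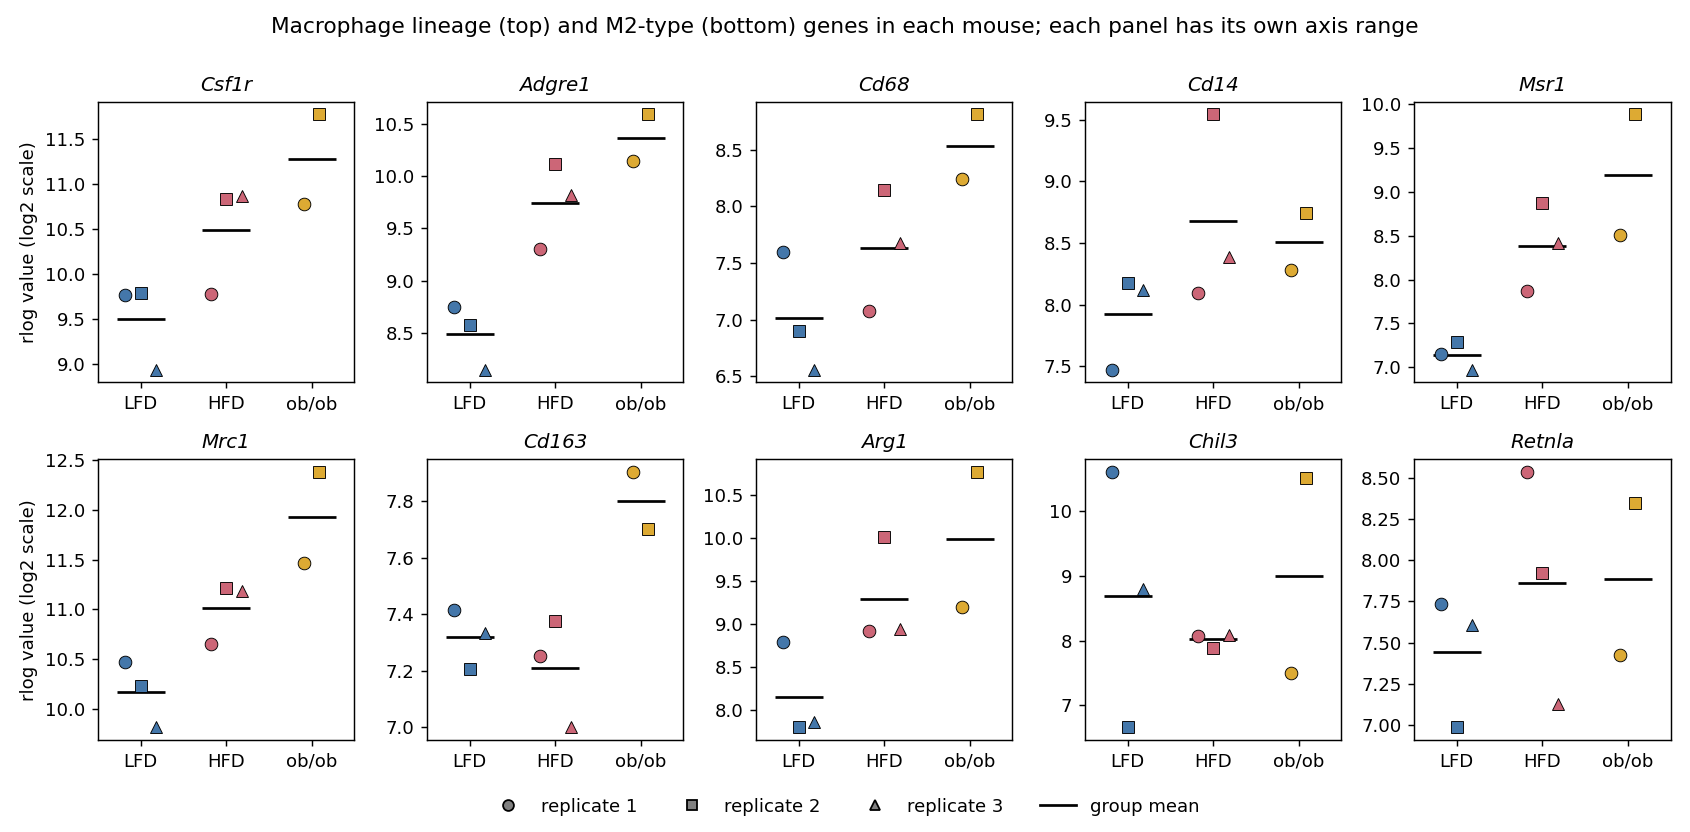
Each panel shows 1 gene, with the rlog value (log2 scale) of each mouse on the vertical axis and the 3 groups on the horizontal axis. Symbols are replicates, horizontal lines are group means, and axis ranges differ between panels. The 5 HFD and ob/ob mice lie above the 3 LFD mice for Adgre1, Msr1, Mrc1 and Arg1, whereas LFD and ob/ob mice for Chil3 are spread over several log2 units.

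Csf1r encodes the receptor for CSF1 and IL-34, which macrophages need to survive. Its rlog values were 9.76, 9.79 and 8.93 in LFD mice, 9.77, 10.83 and 10.86 in HFD mice, and 10.77 and 11.77 in ob/ob mice. Both ob/ob mice and HFD replicates 2 and 3 were above all LFD mice, while HFD replicate 1 was among them. The HFD mean was higher than the LFD mean by 0.99 on the log2 scale (SE 0.39, limma unadjusted p = 0.0329, adjusted p = 0.226). The ob/ob mean was higher by 1.78 (SE 0.44, limma unadjusted p = 0.0031, adjusted p = 0.179). Csf1r lies at chr18:61100598-61132149 on the plus strand of GRCm38 and overlaps Hmgxb3 on the other strand.

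Adgre1 encodes F4/80, the adhesion G protein-coupled receptor by which mouse macrophages are commonly stained (chr17:57358691-57483527, plus strand). Values were 8.75, 8.58 and 8.15 in LFD mice, 9.30, 10.12 and 9.82 in HFD mice, and 10.15 and 10.60 in ob/ob mice. The 3 groups did not overlap, with LFD lowest and ob/ob highest. HFD was higher than LFD by 1.26 (SE 0.26, limma adjusted p = 0.175), a 2.40-fold difference, and ob/ob was higher than LFD by 1.88 (SE 0.29, limma adjusted p = 0.137), a 3.69-fold difference. Among the 10 markers its unadjusted p was the smallest in both comparisons, 0.000982 for HFD and 0.000132 for ob/ob (limma).

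Cd68 encodes a glycoprotein of the late endosome and lysosome of phagocytes (chr11:69664213-69666153, minus strand). LFD mice had values of 7.60, 6.90 and 6.56, HFD mice 7.08, 8.15 and 7.68, and ob/ob mice 8.25 and 8.81. LFD and HFD mice overlapped, and both ob/ob mice were above the other 6 mice. HFD was higher than LFD by 0.62 (SE 0.35, limma adjusted p = 0.348) and ob/ob by 1.51 (SE 0.39, limma adjusted p = 0.186).

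Cd14 encodes the lipopolysaccharide co-receptor of monocytes and macrophages, which hands its ligand to TLR4 (chr18:36725067-36726798, minus strand). Values were 7.47, 8.18 and 8.12 in LFD mice, 8.09, 9.54 and 8.39 in HFD mice, and 8.28 and 8.74 in ob/ob mice. Its order differed from that of the other lineage markers, since the highest mouse was HFD replicate 2 and the ob/ob mean was below the HFD mean by 0.16 (SE 0.42, limma unadjusted p = 0.708). This last difference took the other sign without HFD replicate 2 (0.27) and without ob/ob replicate 1 (0.065). HFD was higher than LFD by 0.75 (SE 0.38, limma adjusted p = 0.297) and ob/ob by 0.59 (SE 0.42, limma adjusted p = 0.439), so that the differences from LFD were within about 2 standard errors.

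Msr1 encodes the class A scavenger receptor, which takes up modified lipoproteins (chr8:39581685-39642673, minus strand). LFD mice had values of 7.15, 7.28 and 6.97, HFD mice 7.87, 8.88 and 8.41, and ob/ob mice 8.51 and 9.88. All 5 obese mice were above the LFD mice, whose spread was small (SD 0.16, n = 3). Msr1 had the largest difference of the 10 markers between ob/ob and LFD mice, 2.06 (SE 0.41, limma adjusted p = 0.145), a 4.16-fold difference, and it was higher in HFD than in LFD mice by 1.25 (SE 0.37, limma adjusted p = 0.182).

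Among the M2-type markers, Mrc1 and Arg1 ran with the lineage markers. Mrc1 encodes the macrophage mannose receptor CD206, an endocytic lectin (chr2:14229392-14332057, plus strand), and the gene for the microRNA Mir511 lies within it. Its values were 10.48, 10.23 and 9.82 in LFD mice, 10.66, 11.22 and 11.18 in HFD mice, and 11.47 and 12.38 in ob/ob mice. The groups followed each other without overlap. HFD was higher than LFD by 0.84 (SE 0.29, limma adjusted p = 0.203), ob/ob was higher than LFD by 1.74 (SE 0.32, limma adjusted p = 0.137), and ob/ob was higher than HFD by 0.90 (SE 0.32, limma unadjusted p = 0.0221, adjusted p = 1.00).

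Arg1 encodes arginase 1, which splits arginine into ornithine and urea (chr10:24915221-24927484, minus strand). Values were 8.80, 7.80 and 7.87 in LFD mice, 8.92, 10.02 and 8.95 in HFD mice, and 9.20 and 10.77 in ob/ob mice. No obese mouse was as low as any LFD mouse, although HFD replicate 1 exceeded LFD replicate 1 only narrowly. HFD was higher than LFD by 1.14 (SE 0.47, limma adjusted p = 0.237) and ob/ob by 1.83 (SE 0.53, limma adjusted p = 0.200). HFD and ob/ob mice overlapped, and without ob/ob replicate 2 the sign of their difference turned (0.69 with it, −0.093 without it).

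Cd163 encodes the scavenger receptor for haptoglobin-haemoglobin complexes (chr6:124304656-124330527, plus strand). Its values were 7.42, 7.21 and 7.33 in LFD mice, 7.25, 7.38 and 7.00 in HFD mice, and 7.90 and 7.70 in ob/ob mice. LFD and HFD mice overlapped (difference −0.11, SE 0.19, limma adjusted p = 0.760), while both ob/ob mice were above the other 6. ob/ob was higher than LFD by 0.48 (SE 0.21, limma unadjusted p = 0.0479, adjusted p = 0.262) and higher than HFD by 0.59 (SE 0.21, limma unadjusted p = 0.0208, adjusted p = 1.00). Over the whole table, 2.28% of genes had an unadjusted p under 0.05 with the higher mean in ob/ob mice and 1.63% with the lower, and Cd163 and Mrc1 were the 2 markers among them.

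Chil3 encodes Ym1, a secreted chitinase-like protein without chitinase activity (chr3:106147554-106167564, minus strand). Its values were 10.60, 6.66 and 8.79 in LFD mice, 8.08, 7.89 and 8.09 in HFD mice, and 7.50 and 10.51 in ob/ob mice. LFD replicate 1 and ob/ob replicate 2 were the high mice and LFD replicate 2 the low one, so that LFD mice spanned 3.94 on the log2 scale (15.3-fold) and ob/ob mice 8.02-fold, against 0.19 on the log2 scale in HFD mice. The SD of Chil3 in the LFD group (1.97, n = 3) stood beside a median of 0.23 over all genes. No difference between groups exceeded this spread: HFD minus LFD was −0.67 (SE 0.99, limma adjusted p = 0.717) and ob/ob minus LFD was 0.32 (SE 1.10, limma adjusted p = 0.887). The first turned sign without LFD replicate 1 (0.29), and the second without LFD replicate 2 (−0.69) or ob/ob replicate 2 (−1.18).

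Retnla encodes RELMα, also called FIZZ1, a secreted cysteine-rich protein (chr16:48842551-48844461, plus strand). LFD mice had values of 7.73, 6.99 and 7.61, HFD mice 8.53, 7.92 and 7.13, and ob/ob mice 7.43 and 8.35. All 3 groups overlapped. HFD was above LFD by 0.42 (SE 0.40, limma adjusted p = 0.563) and ob/ob above LFD by 0.44 (SE 0.45, limma adjusted p = 0.581), each about as large as its standard error. Without ob/ob replicate 2 the ob/ob difference was −0.017.

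**Figure D2:**
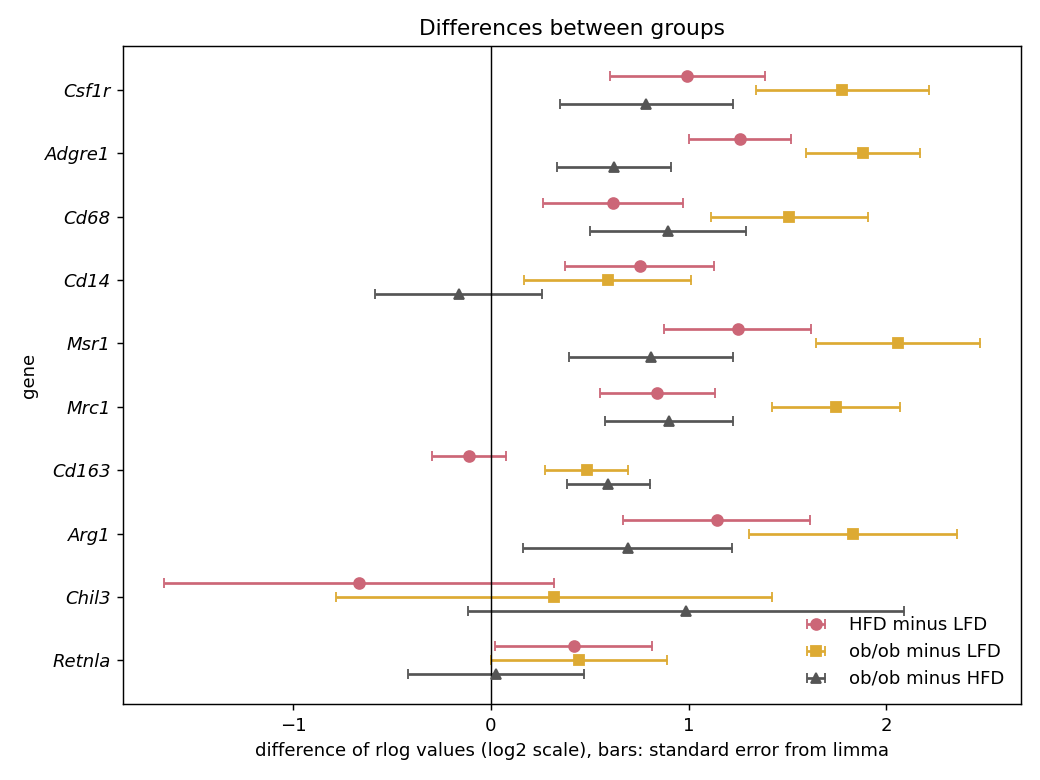
Differences of group means in rlog values (log2 scale, horizontal axis) for each gene (vertical axis), with standard errors from limma as bars. The points for ob/ob minus LFD reach 2.06 at Msr1, and those of Chil3 have the widest bars, with standard errors of 0.99 and 1.10 for HFD and ob/ob against LFD.

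The LFD mean was lowest, the HFD mean between and the ob/ob mean highest for 7 of the 10 markers (Csf1r, Adgre1, Cd68, Msr1, Mrc1, Arg1 and Retnla). Of these only Adgre1 and Mrc1 showed no overlap between any neighbouring groups. For Retnla the ob/ob mean was above the HFD mean by only 0.025 (SE 0.45), and for Arg1 this step turned without ob/ob replicate 2. The share of all genes with this order was not counted, so the order is a description only. At an unadjusted p under 0.05, 5 of the 10 markers were higher in HFD than in LFD mice (Csf1r, Adgre1, Msr1, Mrc1 and Arg1), against 11.5% of all genes, and 0 were lower, against 8.35% of all genes. The count was 2 without LFD replicate 3, against 6.52% of all genes, and 2 without HFD replicate 2, against 6.04%. All HFD mice were above all LFD mice for 4 markers and for 12.9% of genes. In ob/ob against LFD mice, 7 of the 10 were higher at an unadjusted p under 0.05 (the former 5, Cd68 and Cd163), against 11.6% of genes, and 0 were lower, against 7.18%. Both ob/ob mice were above all LFD mice for 8 markers and for 24.1% of genes. Both were above all HFD mice for 4 markers (Adgre1, Cd68, Mrc1 and Cd163) and for 7.92% of genes. The HFD and ob/ob comparisons share their LFD mice.

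Single mice and weights moved the calls. Without HFD replicate 1, 4 markers (Csf1r, Adgre1, Msr1 and Mrc1) passed the adjusted threshold in HFD against LFD, together with 18.7% of all genes. In ob/ob against LFD, Adgre1 passed without HFD replicate 1 (limma adjusted p = 0.0439, 0.591% of genes called), and with only these 2 groups in the fit (limma adjusted p = 0.0499, 0.253% of genes called). Msr1 passed there without ob/ob replicate 1 (adjusted p = 0.0431, limma, 0.405% of genes called). With a weight estimated for each mouse, 7 markers passed in HFD against LFD (44.2% of genes) and the same number in the comparison of both obese groups with LFD (28.5% of genes), but the weights ran from 0.273 for HFD replicate 1 to 9.36 for HFD replicate 2 and their estimation stopped before it converged. With the acinar mean as a covariate, Adgre1 was higher in HFD than in LFD mice by 0.97 (SE 0.23) and Msr1 by 0.75 (SE 0.31), while Csf1r was higher by 0.39 (SE 0.27) and Cd68 by 0.26 (SE 0.35). Under the same covariate, 7 markers were higher in ob/ob than in LFD mice at an unadjusted p under 0.05, against 6.37% of all genes, Adgre1 by 1.57 (SE 0.26), Msr1 by 1.52 (SE 0.34) and Mrc1 by 1.31 (SE 0.24).

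In HFD replicate 1, the markers and the acinar genes can be set side by side in a single mouse. Its acinar mean of 17.41 was inside the LFD range, and so were its values of Csf1r, Cd68, Cd14, Cd163 and Chil3. Its values of Adgre1 (9.30), Msr1 (7.87), Mrc1 (10.66), Arg1 (8.92) and Retnla (8.53) were above every LFD mouse. The share of all genes for which this mouse was inside or above the LFD range was not counted, so these positions are descriptions only. For Mrc1 and Arg1 the highest LFD values, 10.48 and 8.80, were close to these. How the markers depend on the acinar level was not tested by this single mouse. Ptprc, which encodes CD45 of all leukocytes, was at 9.67 in this mouse, inside the LFD values of 9.33, 9.87 and 8.57, and it was higher in the other obese mice, at 10.33 and 10.61 in HFD and 10.09 and 10.41 in ob/ob mice.

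The M2-type markers were next read per unit of Csf1r, by subtracting the rlog value of Csf1r from that of the gene in the same mouse. Only differences between groups can be read from such values, not the level of a gene against another. Relative to Csf1r, Mrc1 was at 0.68 ± 0.22 (SD, n = 3) in LFD mice, 0.53 ± 0.31 (SD, n = 3) in HFD mice and 0.65 ± 0.07 (SD, n = 2) in ob/ob mice. Arg1 was likewise at −1.34 ± 0.56, −1.19 ± 0.62 and −1.29 ± 0.40. For both genes the group means differed by less than the SD within the LFD group, and the mean of both obese groups differed from LFD by −0.093 (SE 0.46) for Mrc1 and 0.10 (SE 0.46) for Arg1.

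Cd163 relative to Csf1r was at −2.34, −2.59 and −1.60 in LFD mice, −2.52, −3.46 and −3.86 in HFD mice, and −2.87 and −4.07 in ob/ob mice. Below the range of the LFD mice were 4 of the 5 obese mice, the exception being HFD replicate 1. The share of all genes with as many mice below the LFD range was not counted. The mean of the obese groups was lower by 1.20 (difference −1.20, SE 0.47, limma adjusted p = 0.0364). In this fit 66.9% of all genes passed because Csf1r itself was higher in obese mice, so that this call is not particular to Cd163. The median difference over all genes was −1.34 in the same fit. Relative to Csf1r, Retnla averaged −2.05 ± 0.74 in the LFD group, −2.63 ± 1.27 in the HFD group and −3.39 ± 0.06 in the ob/ob group, and Cd14 was at −1.57 ± 0.74, −1.81 ± 0.60 and −2.76 ± 0.38. Both ob/ob mice were below all LFD mice for Retnla and Cd14, as they were for Cd163. The share of all genes without overlap on this scale was not counted. In ob/ob against LFD mice on this scale, 77.8% of all genes were lower at a limma unadjusted p under 0.05. The median difference over all genes was −1.74, beside −1.33 for Retnla, −1.19 for Cd14 and −1.29 for Cd163. Chil3 was at −0.81 ± 2.07 in LFD mice, −2.47 ± 0.68 in HFD mice and −2.27 ± 1.42 in ob/ob mice, with overlap of all groups.

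**Figure D3:**
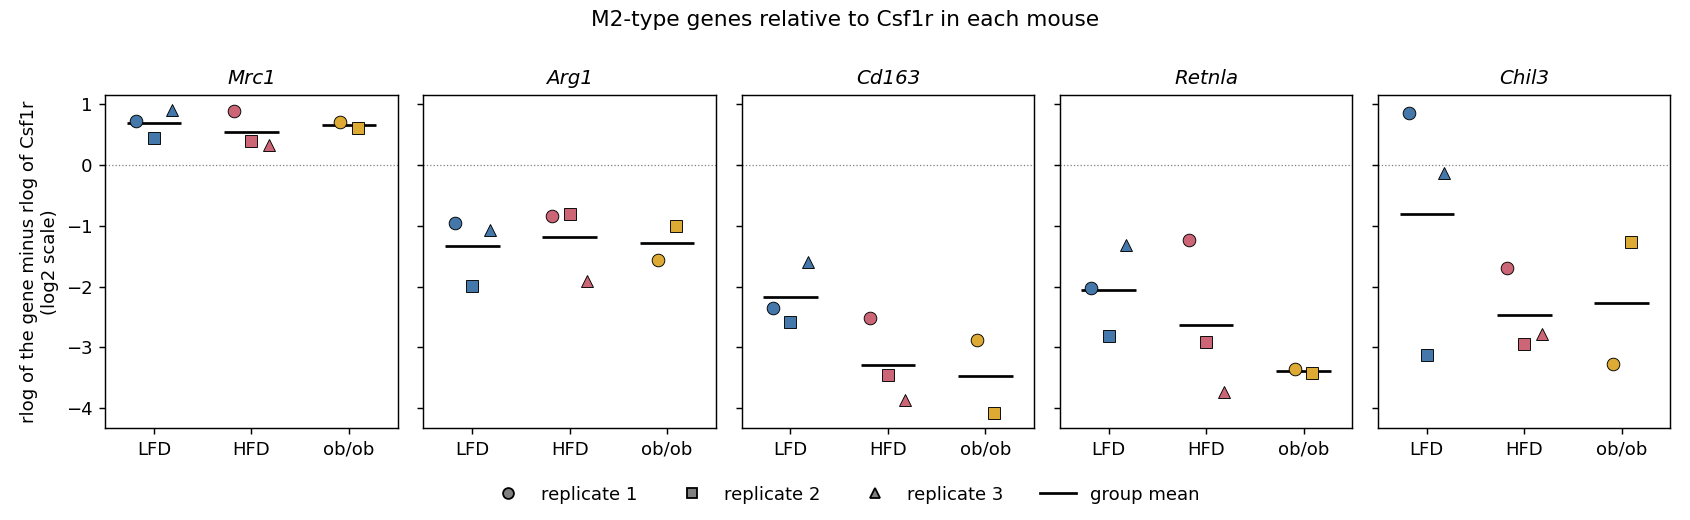
Difference between the rlog value of each M2-type gene and that of Csf1r in the same mouse (log2 scale, vertical axis), by group, with horizontal lines at the group means. Mrc1 and Arg1 keep to a similar height in the 3 groups, whereas Cd163 is at −2.18 on average in LFD mice and at −3.28 and −3.47 in HFD and ob/ob mice. On this scale the median difference over all genes is −1.34 between the mean of both obese groups and LFD.

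Against Ptprc in place of Csf1r, Mrc1 averaged 0.92 ± 0.48 in the LFD group, 0.81 ± 0.21 in the HFD group and 1.67 ± 0.41 in the ob/ob group. Csf1r itself, relative to Ptprc, was at 0.24 ± 0.28, 0.28 ± 0.20 and 1.02 ± 0.48. The ob/ob mice were above the other 6 for Csf1r, Adgre1 and Mrc1 on this scale, and LFD and HFD mice overlapped for all 3. The share of all genes without overlap on this scale was not counted, so this is a description only. At a limma unadjusted p under 0.05, 0 markers and 0.253% of all genes were higher in ob/ob than in LFD mice here. None of these ob/ob differences passed the adjusted threshold (limma adjusted p = 0.312 for Csf1r, 0.239 for Adgre1 and 0.354 for Mrc1 against LFD).

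Both of the secreted M2-type proteins have close relatives in the genome, whose reads can be assigned to the wrong copy. Of the 31-base words in the Chil3 transcripts, 41.5% also occur in transcripts of other genes and 28.9% in those of Chil4, which encodes the related protein Ym2. For Retnla the share was 5.45%, all of it with Retnlg. It was at most 0.565% for each of the other 8 markers, so that the values of Chil3 are less certain than theirs. Chil4 had values of 4.27, 7.39 and 4.42 in LFD mice, 13.38, 5.58 and 5.53 in HFD mice, and 5.87 and 4.62 in ob/ob mice. HFD replicate 1 stood alone at 13.38, and its Chil3 value of 8.08 was next to those of the other HFD mice. The LFD mouse with the highest Chil4 was the one with the lowest Chil3. Retnlg had means of 4.14 in the LFD group, 5.92 in the HFD group and 5.06 in the ob/ob group and was higher in obese than in LFD mice by 1.35 (SE 0.38, limma adjusted p = 0.114).

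**Figure D4:**
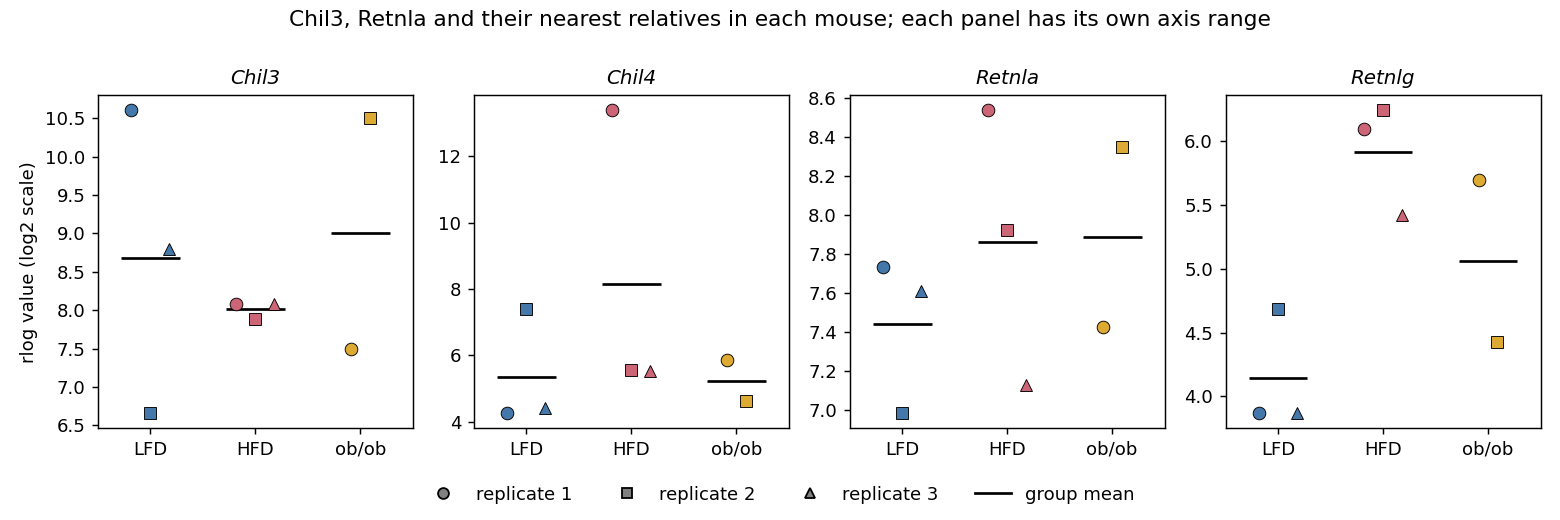
Values of Chil3, Retnla and their relatives Chil4 and Retnlg in each mouse (rlog, log2 scale, vertical axis) by group, with horizontal lines at group means and an axis range of its own in each panel. One HFD mouse is at 13.38 for Chil4, while the HFD mice of Chil3 lie within 0.19 of each other.

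The markers differed in how alike they were across mice. Likeness was measured as the root mean square difference between 2 genes over the 8 mice, each gene centred on its own mean. The mice include the group differences, so a small value partly restates them. Mrc1 was closest to Csf1r among the markers (0.20), followed by Adgre1 (0.23) and Cd68 (0.23), and Csf1r ranked 13 among 15046 genes by likeness to Mrc1. The nearest marker to Arg1 was Msr1 (0.34). The nearest marker to Cd163 was Retnla at 0.51, which is larger than the spread of Cd163 itself about its mean (0.27), and Chil3 was no closer than 1.14 to any marker.

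Over the whole table, the genes nearest to Csf1r were Nckap1l (0.12) and Cdr2l (0.15), and those nearest to Adgre1 were Fcgr2b and Fcer1g (both 0.14). Pla2g7 (0.14) and Tuba1a (0.18) were nearest to Msr1, Tlr6 (0.14) and Trps1 (0.15) to Mrc1, and Ccl9 (0.22) and Lyz2 (0.24) to Arg1. For Cd68 the nearest were Chst14 (0.15) and Pdgfrl (0.18), and for Cd14 Gm13056 (0.15) and Tgtp2 (0.16). Cyp7b1 (0.12) was among the 2 nearest to Cd163. Retnla had Glmn and Zfp955a (both 0.23) as its nearest genes. The nearest genes to Chil3, Gm21451 (0.79) and Thsd7a (0.81), were far from it by this measure, beside a spread of 1.30 for Chil3 itself. The measure depends on the size of differences, so it would miss a gene with the same pattern but smaller differences.

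Promoters of 5 markers were searched, as the 250 bases before the RefSeq start site in GRCm38.p6. Those of Cd68, Mrc1 and Retnla are shown since they hold the motifs searched for. Cd68 and Mrc1 are a pair that went together across mice, and Retnla is a marker that did not follow them. Capitals mark matches on either strand to GAGGAA, the core of the PU.1 site, to TTGCNNAA, a C/EBP site, and to a STAT6 site, written as TTC and GAA with 4 bases between them.
Cd68, chr11:69666171-69666420, minus strand: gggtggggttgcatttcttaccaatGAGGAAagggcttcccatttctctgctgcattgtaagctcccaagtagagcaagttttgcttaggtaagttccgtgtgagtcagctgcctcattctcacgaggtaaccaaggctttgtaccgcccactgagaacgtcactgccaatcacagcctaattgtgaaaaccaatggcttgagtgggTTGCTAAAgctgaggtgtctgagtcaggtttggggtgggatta
Mrc1, chr2:14229164-14229413, plus strand: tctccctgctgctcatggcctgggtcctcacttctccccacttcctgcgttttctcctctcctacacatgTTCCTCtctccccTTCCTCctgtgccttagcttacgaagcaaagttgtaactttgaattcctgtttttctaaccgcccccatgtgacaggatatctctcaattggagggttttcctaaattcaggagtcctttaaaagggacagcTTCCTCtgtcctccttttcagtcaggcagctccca
Retnla, chr16:48842359-48842608, plus strand: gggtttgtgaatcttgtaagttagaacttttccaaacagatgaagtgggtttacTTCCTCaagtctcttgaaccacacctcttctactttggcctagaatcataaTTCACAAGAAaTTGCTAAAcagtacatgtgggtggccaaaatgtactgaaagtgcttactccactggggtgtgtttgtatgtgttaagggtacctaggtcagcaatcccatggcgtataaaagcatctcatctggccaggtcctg

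The Mrc1 promoter held 3 matches to the PU.1 core, 180, 167 and 35 bases before the start site. Cd68 held 1 PU.1 match at 225 bases and 1 C/EBP match at 43 bases. Retnla held 1 match to each motif, at 196 bases for PU.1, 145 for STAT6 and 134 for C/EBP. The Cd163 and Chil3 promoters held none of these letters. Of 32851 promoters of this length, 23.3% held the PU.1 core, 5.85% the STAT6 site and 9.56% the C/EBP site, so that a match to the first is common. A match of letters is not a bound site, and binding was not measured here. The gene for PU.1, Spi1, averaged 5.84 in the LFD group, 7.20 in the HFD group and 7.59 in the ob/ob group and was higher in obese than in LFD mice by 1.55 (SE 0.34, limma adjusted p = 0.0939).

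Other genes of the pathways around these markers were read from lists, in the comparison of the mean of both obese groups with LFD. The lists were chosen with earlier results of these data known, so their counts are descriptions and not independent support. The median difference over all genes was 0.041, and no gene of any list passed the adjusted threshold, so the counts that follow are at an unadjusted p under 0.05. They stand beside 14.5% of all genes higher and 10.9% lower in this comparison, and a single gene of a short list is about what those shares give. In the CSF1 axis, which holds the ligands, GM-CSF receptor chains and myeloid transcription factors, 8 of 12 genes were higher and 0 lower, with a median difference of 1.13. Csf2rb, the shared beta chain of the GM-CSF receptor, was higher by 1.58 (SE 0.35) and Spi1 by 1.55. Of the receptor's own ligands, Il34 was higher by 1.00 (SE 0.43, limma unadjusted p = 0.0473), while Csf1, at 0.99 (SE 0.50, limma unadjusted p = 0.0827), did not pass. Csf1 had LFD values of 7.50, 7.50 and 6.51, HFD values of 7.11, 8.06 and 8.31, and ob/ob values of 7.43 and 9.56, with ob/ob replicate 2 highest and ob/ob replicate 1 inside the LFD range.

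Of 17 other macrophage genes, 15 were higher and 0 lower, with a median difference of 1.39. Cx3cr1, the fractalkine receptor, was higher by 2.04 (SE 0.49) and Lgals3, which encodes galectin-3, by 1.68 (SE 0.36). Monocyte genes stood beside them, with 3 of 6 higher. Among these Ccr2, the receptor that draws monocytes into tissue, was higher by 1.82 (SE 0.23, limma adjusted p = 0.0598) and Vcan by 1.99 (SE 0.22, limma adjusted p = 0.0598). Of 8 genes ascribed to long-resident macrophages 1 was higher and 2 were lower, against 14.5% and 10.9% of all genes. By sign alone, 4 of the 8 had a higher mean in obese mice and 4 a lower one, with a median difference of 0.052. Timd4 was lower in obese mice, with a difference of −1.25 (limma unadjusted p = 0.00622), and so was Marco, with −1.52 (limma unadjusted p = 0.0208). The mean rlog value of Timd4 was low, at 3.51. For Marco the groups overlapped, since LFD replicate 3 was at 5.63 and HFD replicate 2 at 6.15. Timd4 encodes a phosphatidylserine receptor and Marco a scavenger receptor for bacteria.

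M2-type and M1-type genes were higher side by side. Of 16 other M2-type genes 13 were higher and 0 lower (median difference 1.16), led by Il1rn, the interleukin-1 receptor antagonist, at 1.74 (SE 0.41) and Mmp12, the macrophage elastase, at 1.70 (SE 0.52). Igf1 was the single gene of this list with a mean below that of LFD mice (−0.87, SE 0.49). Of 17 M1-type genes 10 were higher and 0 lower (median difference 1.09), led by Fpr2, a formyl peptide receptor, at 1.55 (SE 0.36) and Il1b, which encodes interleukin-1β, at 1.55 (SE 0.41). The difference between the lists was not tested. In ob/ob against HFD mice the medians of both lists were near 0, at 0.019 for M2-type and −0.13 for M1-type genes. The median was 0.69 for the 5 M2-type markers, 0.79 for the 5 lineage markers and 0.67 for the 17 other macrophage genes.

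In the IL-4 and IL-13 axis 3 of 13 measured genes were higher (median difference 0.28). These were the receptor chains Il4ra (1.28), Il2rg (0.91) and Il13ra1 (0.79), while Stat6 itself had values between 9.47 and 9.90 in all mice and a difference of 0.11 (limma unadjusted p = 0.504). Il4, Il13 and Il13ra2, also of this list of 16, had no row under these symbols in the expression table and were therefore not analysed. Around Arg1, the list of arginine metabolism went the other way, with 0 of 10 genes higher and 5 lower (median difference −0.37). Srm, the spermidine synthase, was lower in obese mice (−1.28), as was Asl, which makes arginine from argininosuccinate (−0.92), and the excess of Arg1 was not shared by Arg2 (−0.064). The part of the acinar share in this list was not tested.

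Partners of single markers gave smaller counts. Of 6 genes that act with CD14, 2 were higher, Tlr2 by 0.97 and Tlr4 by 0.85, and 0 lower. Of 9 genes around CD163, 4 were higher and 0 lower, with Hp, the haptoglobin gene, at 1.72 (SE 0.29) and Hmox1, the haem oxygenase gene, at 1.00. Of 8 other scavenger receptors 3 were higher and 1 lower, with Cxcl16 at 1.37 and Olr1 at 0.69 (limma unadjusted p = 0.323). Of 9 lysosomal genes 5 were higher and 0 lower, with Lgmn, an asparaginyl endopeptidase, at 1.56. Of 9 relatives of the markers 4 were higher and 0 lower.

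**Figure D5:**
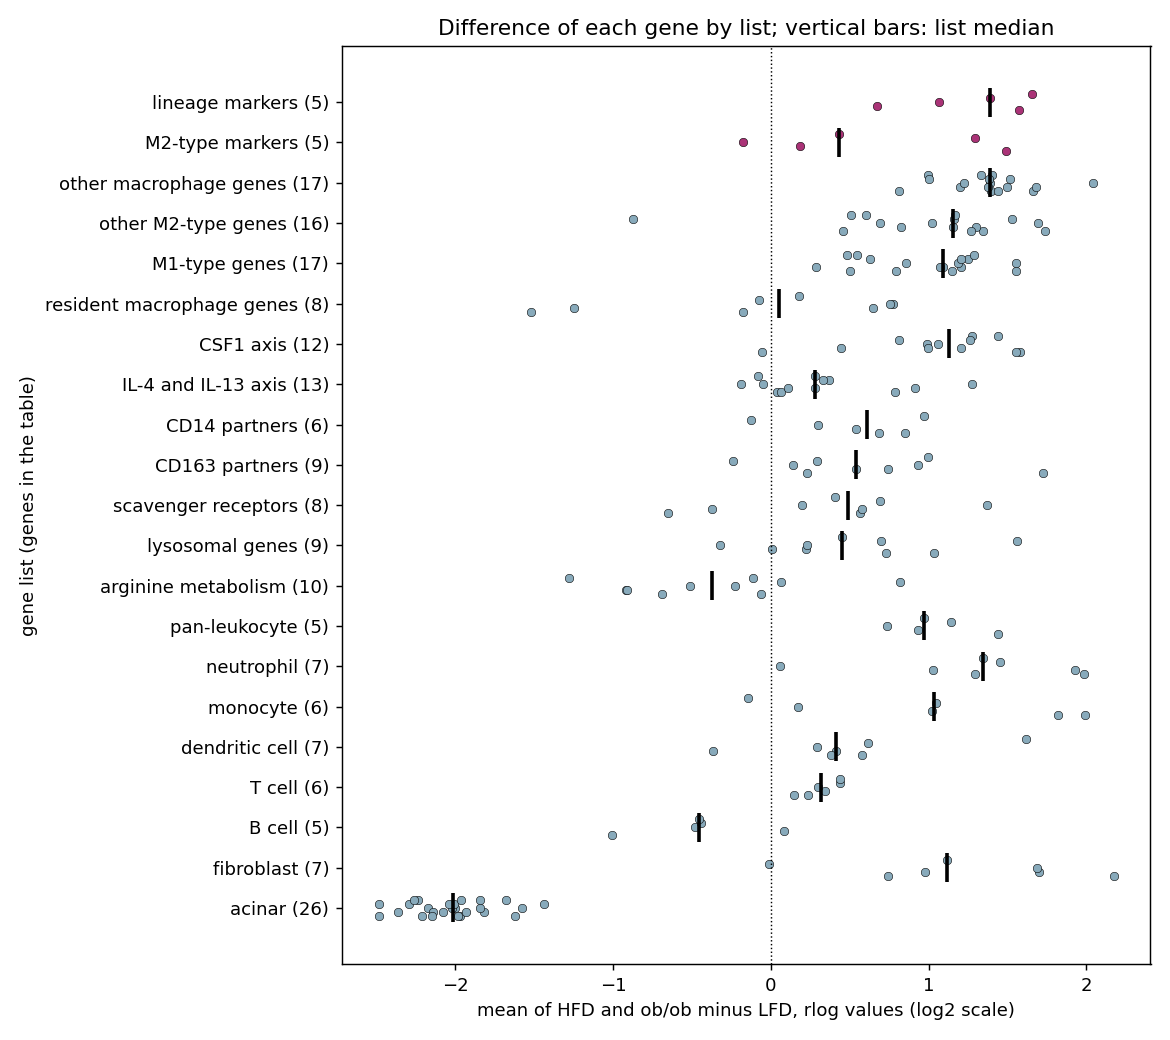
Each point is a gene, placed by the difference of the mean of HFD and ob/ob from LFD (rlog values, log2 scale, horizontal axis) in the row of its list (vertical axis, with the number of genes in the table), and vertical bars are list medians. The medians of the lineage markers and of the other macrophage genes are at 1.39, that of the M2-type markers is at 0.43, and the 26 acinar genes all lie below 0.

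Markers of other cells in the tissue were counted in the same way. All 5 pan-leukocyte genes were higher at an unadjusted p under 0.05, 6 of 7 neutrophil genes (S100a8 by 1.99, S100a9 by 1.93), 2 of 3 eosinophil genes (Ccr3 by 1.19, whereas Il5ra, at 1.41, did not pass) and 1 of 7 dendritic cell genes (Itgax, by 1.61, a gene that macrophages also express, whereas Flt3 had 0.62). Of the 6 T cell genes 0 were higher or lower (Cd8a at 0.44, Cd4 at 0.43), as for the 5 B cell genes (Cd79a at −0.48) and the 5 mast cell genes (Kit at −0.63, Mcpt4 at −0.14). Among the stroma, 6 of 7 fibroblast genes were higher, with Col1a1 at 2.17 and Col1a2 at 1.70, and 0 of 5 endothelial genes (Cdh5 at 0.51, Eng at 0.45). Of 26 acinar genes 5 were lower, among them Pla2g1b at −2.49 (SE 0.83), while Try4, at −2.49 (SE 1.27), did not pass, and the median was −2.01. Duct genes gave 1 of 6 higher (Krt7 at 1.12, while Cftr, at 0.68, did not pass), islet genes 0 of 7 (Sst at −0.84, Iapp at 0.63), adipocyte genes 1 of 6 (Lep at 1.25, while Retn, at −0.68, did not pass), and mesothelial genes 0 higher and 2 of 4 lower (Upk3b at −1.30, Lrrn4 at −1.05).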

How the data were processed

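RNA sequencing of pancreas from 8 mice was analysed. The authors quantified transcripts of Gencode M18 (GRCm38.p6) with Salmon 0.11.3, summed them per gene with tximport and deposited log2 values from the rlog function of DESeq2 1.22.2, 1 column per mouse. No counts or depths come with these values, so the count test of the study was not run. The filter that left 15047 genes and the blind setting of rlog are not given in the sources used here, nor is strand handling. Groups were taken from the sample titles. The 10 markers and all gene lists were chosen with earlier results of these data known.

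A mean per group was fitted to all genes and all 8 mice with limma 3.58.1 (R 4.3.3), with empirical Bayes moderation and a trend on the mean. Each obese group was set against LFD, ob/ob was set against HFD, and both obese groups together, as the mean of their means, against LFD, with Benjamini-Hochberg adjustment over 15047 genes at 0.05. The labels give no more than that the mice are separate, so p-values measure the spread between these mice. The fit was tested on simulated data. Alternatives were no trend, only the groups compared, a mean of at least 5, median centring, quantile normalization, array weights, a replicate block, an acinar covariate, centring on Ptprc or Csf1r, and leaving out each mouse.

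Named besides the markers were the 2 genes of each list with the largest absolute difference between obese and LFD mice, Ptprc, Chil4 and Retnlg, and for each marker the 2 nearest genes. Some genes that this rule names are not reported here. Csf1, Il34, Stat6, Il13ra1, Igf1 and Arg2 were named after their values were seen. Positions and shared 31-base words, the default word length of Salmon, are from Gencode M21 (GRCm38), matched by symbol for all 10 markers. Promoters are from RefSeq (GRCm38.p6), and those of 5 of the 10 markers were searched. Adgre1, Msr1 and Arg1 had no usable entry, and the promoters of Csf1r and Cd14 were not looked at. Python 3.11.15 and matplotlib 3.10.9 were used.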

Additional observations from a re-analysis of the deposited data

How the results depend on the processing

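The 8 mice, and 2 in the ob/ob group, limit every comparison, and no depth is known. Under the alternatives other than centring on Ptprc or Csf1r, the signs of the differences from LFD held for Csf1r, Adgre1, Cd68, Cd14, Msr1, Mrc1 and Arg1, and turned under at least 1 for Chil3, Retnla and Cd163. The labels do not say that the replicate numbers pair the mice. Deviations of same-numbered LFD and HFD mice correlated at −0.060, 0.11 and −0.28, and those of LFD and ob/ob mice at −0.097 and 0.13. Same-numbered HFD and ob/ob mice correlated at 0.59 and 0.30. The 2 ob/ob mice deviate by equal and opposite amounts, so each ob/ob value recurs with the other sign. Not every mouse correlated best with its own number, and whether the numbers pair the mice was not tested. With the replicate block, 6, 6, 2 and 7 markers were higher at an unadjusted p under 0.05 (HFD to LFD, then ob/ob to LFD, then ob/ob to HFD, then both to LFD), against 12.7%, 12.5%, 1.89% and 15.7% of all genes, 0 passed the adjustment, and Retnla in ob/ob against HFD turned to −0.12.

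With array weights, 7 markers and 6656 genes passed the adjusted threshold in HFD against LFD (8 markers higher unadjusted, against 29.0% of all genes), 7 markers and 4286 genes in both against LFD, and 1 marker was higher unadjusted in ob/ob against HFD (2.66% of all genes). Signs turned for Cd163 in HFD against LFD (0.052), Retnla in ob/ob against HFD (−0.012) and Chil3 in both against LFD (0.040). With only the groups compared, 1 gene passed in HFD against LFD, and 1 marker and 38 genes in ob/ob against LFD, and 1 marker was higher unadjusted in ob/ob against HFD (1.56% of all genes), beside 4 with median centring (2.33%). With the acinar covariate, 2 markers were higher unadjusted in HFD against LFD (6.05% of all genes) and 6 in ob/ob against HFD (4.29%), 1 gene passed in each comparison but HFD against LFD, and Cd163 in HFD against LFD (0.011) and Chil3 in ob/ob against LFD (−0.50) turned sign. The cause of these changes was not tested.

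Centring on Ptprc or Csf1r lowers every gene of a mouse by the same amount, so a turned sign here is built in for markers that differed less than that gene. Higher unadjusted were then 0 markers in any comparison, and at most 0.598% of all genes. On Ptprc, 1359, 906 and 3926 genes passed in HFD, ob/ob and both against LFD. Differences turned in HFD against LFD for Cd68 (−0.33), Cd14 (−0.19), Mrc1 (−0.10) and Retnla (−0.53), in ob/ob against LFD for Cd14 (−0.40), Cd163 (−0.51), Chil3 (−0.68) and Retnla (−0.55), in ob/ob against HFD for Retnla (−0.023), and in both against LFD for Cd14 (−0.30), Cd163 (−0.78) and Retnla (−0.54). On Csf1r, 1, 11098 and 10066 genes passed, with 1 marker (Cd163) in the last. Differences turned in HFD against LFD for Cd68 (−0.38), Cd14 (−0.24), Mrc1 (−0.15) and Retnla (−0.57), in ob/ob against LFD for Cd68 (−0.27), Cd14 (−1.19), Mrc1 (−0.034), Cd163 (−1.29), Chil3 (−1.46) and Retnla (−1.33), in ob/ob against HFD for Adgre1 (−0.16), Cd163 (−0.19), Arg1 (−0.094) and Retnla (−0.76), and in both against LFD for Cd68 (−0.32), Cd14 (−0.71), Mrc1 (−0.093), Cd163 (−1.20) and Retnla (−0.95).

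Leaving out each mouse in turn, the markers past the adjusted threshold ranged from 0 to 4 in HFD against LFD, 0 to 1 in ob/ob against LFD and 0 to 6 in both against LFD, beside 0 to 2812, 0 to 89 and 0 to 3326 genes, with 0 to 1 gene in ob/ob against HFD. Markers higher unadjusted ranged from 2 to 7 in HFD against LFD (6.04% to 19.8% of all genes) and 1 to 6 in ob/ob against HFD (1.80% to 4.00%). Markers without overlap ranged from 4 to 7 in HFD against LFD (12.9% to 30.0% of all genes), 4 to 8 in ob/ob against HFD (7.92% to 29.4%) and 4 to 7 in both against LFD (9.73% to 18.4%). The differences of Chil3 ranged from −1.68 to 0.29 in HFD against LFD, −1.18 to 1.82 in ob/ob against LFD, −0.52 to 2.49 in ob/ob against HFD and −1.19 to 0.78 in both against LFD. Those of Retnla ranged from −0.017 to 0.90 in ob/ob against LFD and −0.44 to 0.49 in ob/ob against HFD, where Cd14 ranged from −0.45 to 0.27 and Arg1 from −0.093 to 1.48.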
